A study of Mus musculus with 15 samples.

Results

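The *Period* genes *Per1*, *Per2* and *Per3* and the cryptochrome genes *Cry1* and *Cry2* were chosen by symbol as the negative limb of the circadian clock, and these 5 of the 23235 genes of the RNA-seq table are described here. Transcript levels were measured in the cortex of 9 adult male mice at Zeitgeber time (Zt, hours after lights on) +6, in the light, and Zt +16, in the dark. WT mice were C57BL/6J, with 3 mice at Zt +6 and 2 at Zt +16. The paper describes the WT and *Snord116del* mice as littermates, from heterozygous deletion fathers and WT C57BL/6 mothers. *Snord116del* mice, 2 at each time, were of strain B6(Cg)-Snord116tm1.1Uta/J and carried the deletion as Snord116del (+/-), inherited from the father. It is a germline deletion carried by every cell type of the cortex, and no other allele or treatment is given for any group. *116HG* is the long noncoding RNA made of the spliced exons that host the *Snord116* small nucleolar RNAs, and it was pulled down with the chromatin attached to it from adult brain by chromatin isolation by RNA purification (ChIRP) with oligos complementary to it. Peak lists were at hand for 5 single libraries. WT brain was pulled down with *116HG* oligos in 2 libraries, called replicates 1 and 2. The 3 control libraries used non-specific control (NSC) oligos on WT brain, or either kind of oligo on *Snord116del* brain.

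In the clock, the activators CLOCK and BMAL1 (encoded by *Arntl*) bind E-boxes in the promoters of the *Period* and cryptochrome genes and raise their transcription. PER and CRY proteins then accumulate, enter the nucleus together and repress CLOCK and BMAL1, and so their own genes, until they are degraded. *Per1* and *Per2* also respond directly to hormones, and through CREB to light and neuronal activity. *Per3* is the member whose loss affects the rhythm least. *Cry1* is known for a later peak than the *Period* genes and *Cry2* for a shallow rhythm. In forebrain regions outside the suprachiasmatic nucleus these genes also cycle, with a phase set by the master clock and by activity.

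The table holds 1 Cuffdiff FPKM (fragments scaled to transcript length and library size) per group and gene and no value per mouse. For this reason no spread between mice or error can be given, and no p-value was computed for any difference below. The authors' own Cuffdiff p- and q-values cover the genotypes at each time and were not used. A gene was called higher or lower where FPKM + 1 differed by at least 1.5-fold, 0.58 on the log2 scale, and at least 1 FPKM was reached in the group with the higher level. Fold changes are on the log2(FPKM + 1) scale and understate the change of low genes. All 5 genes passed the filter of a mean of at least 1 FPKM, as did 10297 genes in all, which form the background. Since the cortex was measured in bulk, fewer cells of a type and less RNA per cell cannot be told apart.

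The groups differed over most genes, which bears on each comparison below. At Zt +6 the tested genes had a median of 3.17 FPKM in WT against 5.63 FPKM in *Snord116del*, and at Zt +16 a median of 2.90 against 4.00 FPKM. *Gapdh*, a glycolytic enzyme and the study's reference transcript, had 1386 FPKM in WT Zt +6, 843 in *Snord116del* Zt +6, 1694 in WT Zt +16 and 3368 in *Snord116del* Zt +16. Summed FPKM over all genes came to 159300, 160199, 216422 and 342188 in that order. Each result was therefore also computed with every group set to the same median, the same sum or the same *Gapdh*, and each of these scales moved the median change of all genes by more than 0.1 in at least 1 comparison.

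*Per1*, the *Period* gene that responds fastest to stimuli, was at 9.89 FPKM in WT Zt +6, 15.8 in *Snord116del* Zt +6, 4.03 in WT Zt +16 and 4.27 in *Snord116del* Zt +16. Both groups of the light phase lay above both groups of the dark phase. *Per2*, whose protein is the limiting partner of the repressor complex, was at 3.34, 8.85, 3.25 and 3.25 FPKM in that order. Only *Snord116del* Zt +6 stood apart, and the other three groups lay within 0.1 FPKM of each other. *Per3* was at 1.56, 4.62, 1.33 and 1.49 FPKM, again with *Snord116del* Zt +6 above the rest. *Cry1*, the stronger repressor of the cryptochromes, was at 1.87, 3.14, 3.01 and 4.03 FPKM, so that its lowest value was in WT in the light and its highest in *Snord116del* in the dark. *Cry2* was at 10.1, 10.9, 9.03 and 12.9 FPKM, the narrowest relative range of the 5 genes.

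**Figure D1:**
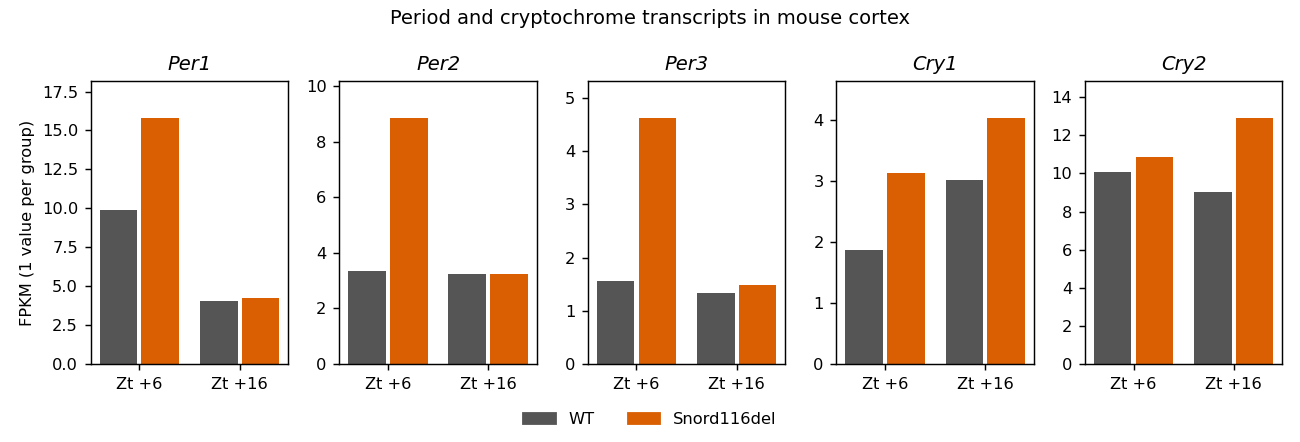
FPKM of each gene (vertical axes, linear and starting at 0, a scale of its own for each gene) in WT (grey) and *Snord116del* (orange) cortex at Zt +6 and Zt +16; each bar is the single deposited value of its group, without error. *Per2* and *Per3* are high in 1 of the 4 groups, *Per1* is high at Zt +6 in both genotypes, and *Cry1* and *Cry2* are highest in *Snord116del* at Zt +16.

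The order of the genes changed between groups. *Cry2* and *Per1* had the highest levels in every group, *Cry2* first in WT Zt +6 (1.02 times *Per1*), WT Zt +16 (2.24 times) and *Snord116del* Zt +16 (3.03 times), and *Per1* first in *Snord116del* Zt +6 (1.46 times *Cry2*). *Per3* was lowest in 3 groups and *Cry1* in *Snord116del* Zt +6, and the highest gene exceeded the lowest between 5.04-fold and 8.67-fold. Several neighbours were close, such as *Cry2* and *Per1* in WT Zt +6, *Per2* and *Cry1* in WT Zt +16 (1.08 times) and *Per1* and *Cry1* in *Snord116del* Zt +16 (1.06 times), and without values per mouse it cannot be said whether such neighbours differ beyond their spread.

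Ratios between the genes within a group do not depend on how the groups are scaled. The 3 *Period* genes together had 1.24 times the FPKM of both cryptochromes together in WT Zt +6, 2.09 times in *Snord116del* Zt +6, 0.714 times in WT Zt +16 and 0.531 times in *Snord116del* Zt +16. The balance thus lay on the *Period* side at Zt +6 and on the cryptochrome side at Zt +16 in both genotypes, and the times were farther apart in *Snord116del*. The *Period* transcripts are longer than those of the cryptochromes, and the changes between groups moved with transcript length over all genes. With that trend removed, the change from Zt +6 to Zt +16 in *Snord116del* went from -1.21 to -0.38 for *Per2*, from -1.18 to -0.31 for *Per3* and from -1.67 to -1.12 for *Per1*, beside -0.96 for *Per1* in WT. *Per1* made up 66.9% of the *Period* sum in WT Zt +6, 54.0% in *Snord116del* Zt +6, and 46.8% and 47.4% at Zt +16. The ratio of *Per2* to *Per1* was 0.337 and 0.560 at Zt +6 and 0.807 and 0.760 at Zt +16. *Cry1* had 0.186 times the FPKM of *Cry2* in WT Zt +6 and 0.289, 0.333 and 0.312 times in the other groups, so WT in the light was the group with the least *Cry1* relative to *Cry2*. The ratio of *Per3* to *Per2* moved least, from 0.408 to 0.522.

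The promoters of the genes are shown because the clock activators act through the E-box, and to show which of the windows searched hold it. RefSeq promoter windows (GRCm38.p6, 250 bases before to 50 bases after the start) were at hand for 4 of the 5 genes, with 5 windows since *Per1* has both an upstream and a downstream start. *Per2* had no window and was not searched, and elements farther from a start than these windows would be missed. Both strands were searched for the E-box CACGTG and for the E′-box CACGTT, which reads AACGTG on the other strand. The cAMP response element was searched as TGACGTCA and by its first bases TGACG, which read as CGTCA on the other strand and are part of any full element. The D-box was searched in the forms TTATGTAA and TTATGCAA. The 250 bases before the start follow, 5′ to 3′ on the gene's strand, with E-box, E′-box and D-box letters in capitals. They lie at chr11:69098699-69098948 on the + strand for the upstream start of *Per1*, and on the - strand at chr4:151044666-151044915 for *Per3*, chr10:85185055-85185304 for *Cry1* and chr2:92434070-92434319 for *Cry2*.
Per1: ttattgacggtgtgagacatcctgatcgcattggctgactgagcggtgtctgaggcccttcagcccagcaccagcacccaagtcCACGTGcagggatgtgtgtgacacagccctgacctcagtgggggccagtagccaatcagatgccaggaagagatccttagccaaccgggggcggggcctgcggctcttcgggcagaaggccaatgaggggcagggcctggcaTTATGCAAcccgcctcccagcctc
Per3: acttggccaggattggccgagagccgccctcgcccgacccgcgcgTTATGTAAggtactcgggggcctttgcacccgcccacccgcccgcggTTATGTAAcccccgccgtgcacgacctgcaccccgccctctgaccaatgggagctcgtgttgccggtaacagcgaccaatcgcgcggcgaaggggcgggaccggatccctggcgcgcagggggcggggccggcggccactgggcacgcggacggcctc
Cry1: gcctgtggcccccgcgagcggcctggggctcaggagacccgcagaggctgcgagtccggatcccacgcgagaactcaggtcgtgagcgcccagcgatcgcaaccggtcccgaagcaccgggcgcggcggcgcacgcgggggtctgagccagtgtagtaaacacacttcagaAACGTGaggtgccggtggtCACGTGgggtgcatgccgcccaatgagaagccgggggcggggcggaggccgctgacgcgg
Cry2: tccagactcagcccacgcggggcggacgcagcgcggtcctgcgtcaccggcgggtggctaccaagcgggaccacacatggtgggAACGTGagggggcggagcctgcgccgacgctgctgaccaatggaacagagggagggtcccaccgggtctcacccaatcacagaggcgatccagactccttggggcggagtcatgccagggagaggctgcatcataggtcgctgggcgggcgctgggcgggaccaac

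CACGTG was in 2 of the 5 windows, 166 bases before the upstream start of *Per1* and 60 bases before that of *Cry1*, against 7.15% of 32851 mouse promoter windows. The E′-box was in the windows of *Cry1* (at -79) and *Cry2* (at -166), against 4.68% of all windows. *Per3* had TTATGTAA at -205 and at -158, and 0.938% of all windows hold those letters. TTATGCAA, in 0.743% of all windows, was 24 bases before the upstream start of *Per1*. TGACG or CGTCA was in 4 of the 5 windows, against 20.8% of all, and no window held the full cAMP response element, which 1.79% of all hold. *Per1* and *Cry1* thus share CACGTG near a start, and from Zt +6 to Zt +16 in WT *Per1* was called lower (-1.12) while *Cry1*, at 0.48, was not called. These matches are descriptions of the letters and do not show that a factor is bound.

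The first question was how the deletion goes with transcript levels in the light. At Zt +6 the 3 *Period* genes were called higher in *Snord116del*, and neither cryptochrome was called. *Per2* differed by 1.18 on the log2 scale (2.65-fold in FPKM), *Per3* by 1.14 (2.97-fold) and *Per1* by 0.63 (1.60-fold). *Cry1* differed by 0.53 and *Cry2* by 0.10. The count of 3 of 5 has to be read against all tested genes, of which 49.3% were called higher and 7.62% lower, with a median change of 0.57. The median of the 5 genes was 0.63. Relative to the median of all genes, *Per2* and *Per3* were above it, *Per1* and *Cry1* close to it and *Cry2* below it, and 17.5% of the tested genes had a larger change than *Per2*.

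At Zt +6 the direction held for *Per2* and *Per3* under every scale but not for the other genes. With every group set to the same median, *Per2* was at 0.46 and *Per3* at 0.49, neither past the fold, while *Per1* was at -0.14, *Cry1* at -0.06 and *Cry2* at -0.64, which is past the fold downwards. With equal *Gapdh*, all 5 genes were called higher, from 0.77 for *Cry2* to 1.84 for *Per2*. The change also moved with transcript length over all genes. Genes with a longest transcript of at most 1000 bases had a median change of -0.46, those of 3000 to 4000 bases 0.64, those of 4000 to 5000 bases 0.88, those of 5000 to 6000 bases 1.00 and longer ones 1.23. *Per2* (5837 bases) and *Per3* (5999 bases) are the longest of the 5 genes, *Per1* has 4671 bases, *Cry2* 3976 and *Cry1* 3014. With the trend on length removed, *Per2* was at 0.71 and *Per3* at 0.64, both past the fold, and *Per1* was at 0.30, below it. The median of all genes was still 0.57 on that scale and 48.5% of genes were called higher, so *Per2* and *Per3* lay near the middle, with 39.1% and 43.9% of genes above them in place of 17.5% and 19.8% as deposited. The part of transcript length in the levels of these genes beyond this was not tested.

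**Figure D2:**
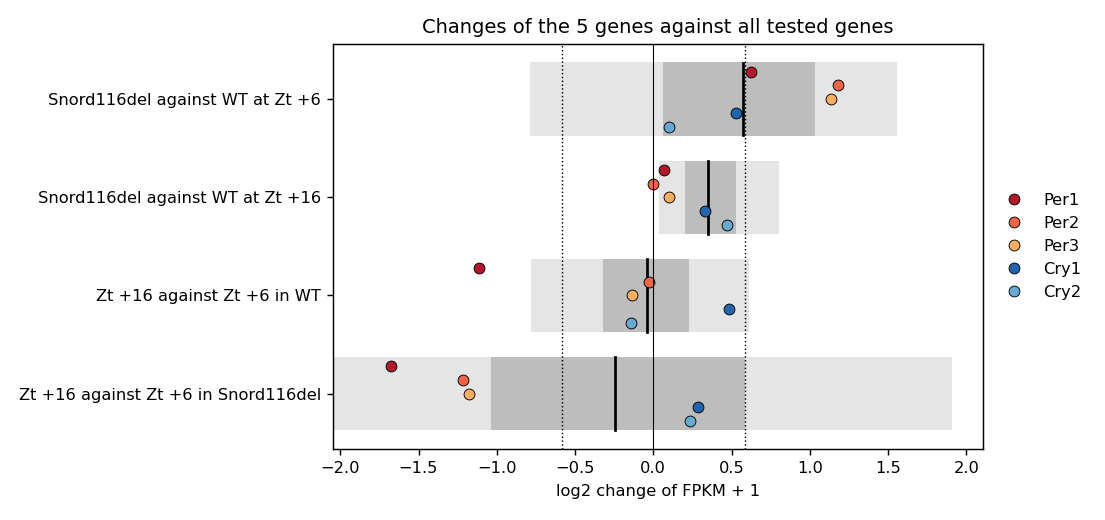
The log2 change of FPKM + 1 (horizontal axis) of the 5 genes (coloured points) in the 4 comparisons (rows), over the middle 90% (light grey) and the middle 50% (dark grey) of all 10297 tested genes, with their median as a black line and the fold of 1.5 as dotted lines. *Per1* lies outside the light band for Zt +16 against Zt +6 in WT, and *Per2* lies below it for the genotypes at Zt +16; on other scales of the groups the values shift, with *Per1*, *Cry1* and *Cry2* changing side at Zt +6.

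**Figure D3:**
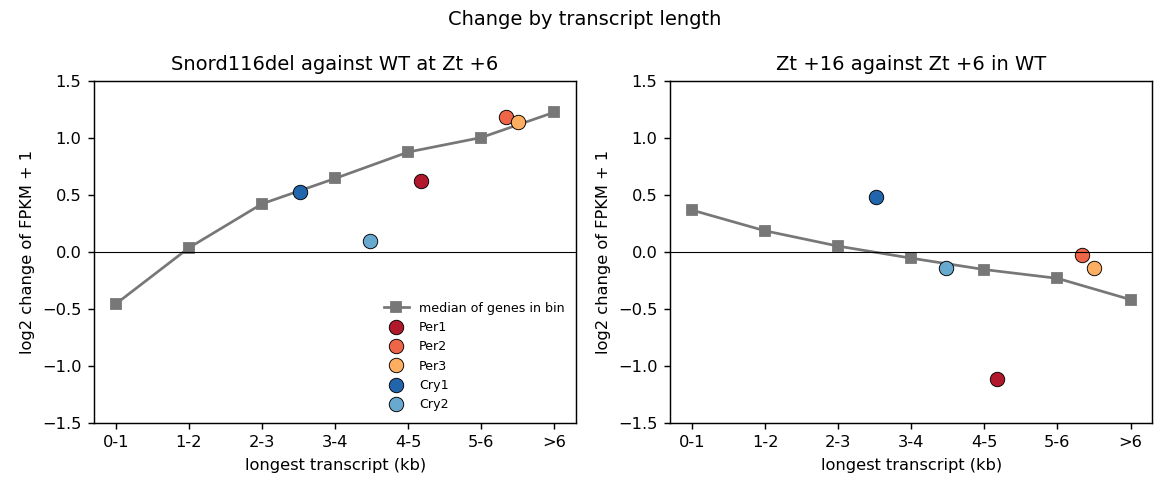
Median log2 change of FPKM + 1 (vertical axes) of all tested genes in bins of longest transcript length (horizontal axes, kb, grey squares at the middle of each bin), with each of the 5 genes at its own length, for the genotypes at Zt +6 (left) and the times in WT (right). At left *Per2* and *Per3* lie near the line for their length and *Per1* and *Cry2* below it, and at right *Per1* lies far below the line and *Cry1* above it.

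The same comparison in the dark gave no call for these genes. At Zt +16 *Per1* differed by 0.07, *Per2* was at 3.25 FPKM in both genotypes, *Per3* differed by 0.10, *Cry1* by 0.33 and *Cry2* by 0.47. Of all tested genes 19.0% were called higher and 0.204% lower, and the median change was 0.35. The *Period* genes were thus among the genes with the smallest values, since 92.7% of the tested genes had a larger change than *Per1*, 96.9% a larger one than *Per2* and 89.7% a larger one than *Per3*. *Cry1* was near the middle, with 53.9% of genes above it, and *Cry2* above the middle, with 31.5% above it. The directions depend on the scale, since *Per1* was at -0.64 and *Per2* at -0.65 with equal *Gapdh*, both past the fold downwards, and all 5 genes were below 0 with equal sums and with equal *Gapdh*. The 3 *Period* genes lay below both cryptochromes as deposited, with equal medians and with equal sums, and with equal *Gapdh* this held for *Per1* and *Per2* but not for *Per3* (-0.37, beside -0.38 for *Cry1* and -0.41 for *Cry2*).

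**Figure D4:**
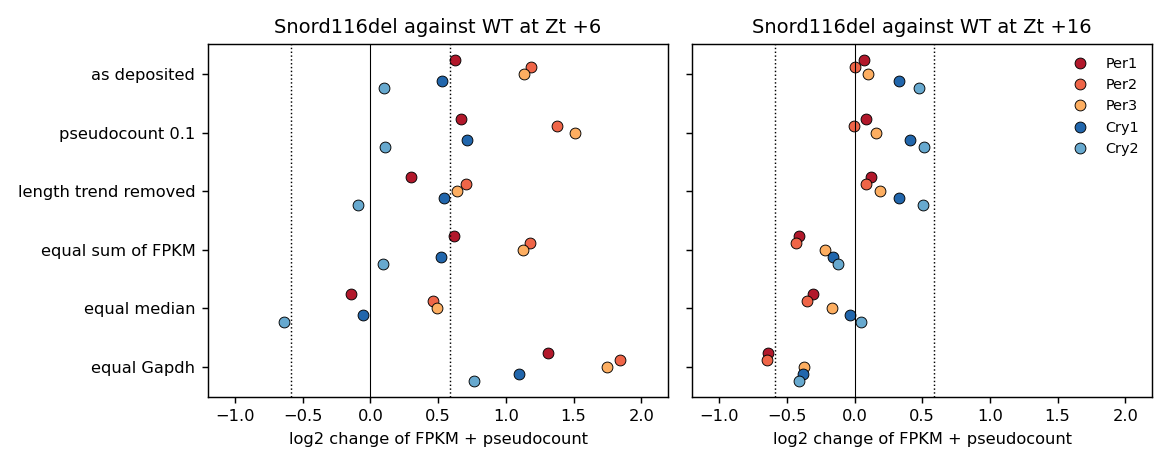
The log2 change of FPKM of *Snord116del* against WT (horizontal axes) of the 5 genes at Zt +6 (left) and Zt +16 (right) under 6 ways of computing it (rows), with dotted lines at the fold of 1.5. *Per2* and *Per3* stay above 0 in every row at left, *Per1*, *Cry1* and *Cry2* do not, and at right the 3 *Period* genes stay below the cryptochromes in every row but that of equal *Gapdh*, where *Per3* lies just above them.

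The genotype change at Zt +6 minus that at Zt +16 was 1.18 for *Per2*, 1.04 for *Per3*, 0.56 for *Per1*, 0.20 for *Cry1* and -0.37 for *Cry2*, beside a median of 0.22 over all tested genes. For *Per2*, 9.13% of the tested genes had a larger difference, for *Per3* 13.8% and for *Cry2* 74.2%. Both genotype changes moved with transcript length over all genes, in opposite directions. Genes of 5000 to 6000 bases had a median change of 1.00 at Zt +6 and 0.27 at Zt +16. With the length trend removed, *Per2* was at 0.71 at Zt +6 and 0.09 at Zt +16, and *Per3* at 0.64 and 0.19. With 1 value per group, the difference itself could not be tested.

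From the light to the dark in WT, *Per1* was the member called. It fell from 9.89 to 4.03 FPKM, a change of -1.12 on the log2 scale, and 98.4% of the tested genes had a larger (less negative) value. *Cry1* moved the other way, from 1.87 to 3.01 FPKM, a change of 0.48 that was short of the fold, with 9.60% of the genes above it. *Per2* (-0.03), *Per3* (-0.14) and *Cry2* (-0.14) were near the median of all genes, which was -0.04. Of all tested genes 5.71% were called higher and 10.3% lower. *Per1* was called lower on every scale and setting, from -0.96 with the length trend removed to -1.46 with equal sums, and *Cry1* stayed above 0 on all of them, from 0.16 to 0.66.

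In *Snord116del* the 3 *Period* genes were called lower at Zt +16 than at Zt +6. *Per1* fell from 15.8 to 4.27 FPKM (-1.67), *Per2* from 8.85 to 3.25 (-1.21) and *Per3* from 4.62 to 1.49 (-1.18), while *Cry1* (0.28) and *Cry2* (0.23) were higher but short of the fold. Of all tested genes 25.0% were called higher and 39.1% lower, with a median of -0.24. This comparison shares *Snord116del* Zt +6 with the first one and *Snord116del* Zt +16 with the second. Over all genes the change again moved with length, from 1.43 for transcripts of at most 1000 bases to -1.44 for those over 6000 bases. With that trend removed, *Per1* was at -1.12 and still called, while *Per2* was at -0.38 and *Per3* at -0.31 and were not. The cryptochromes had no settled direction, since with equal medians both were called higher (*Cry1* 0.60, *Cry2* 0.66), with equal sums *Cry2* was at -0.75 and with equal *Gapdh* *Cry1* was at -1.21 and *Cry2* at -1.58.

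Markers of other cell types moved between the same groups. Their call counts are to be read against all tested genes at Zt +6, of which 49.3% were called higher and 7.62% lower. Equal medians left 13.5% of all tested genes called higher. The marker values are as deposited and were not computed on other scales or with the length trend removed. The summed FPKM of the 5 astrocyte markers (among them *Aqp4* and *Gfap*) was 33.3 in WT Zt +6, 98.5 in *Snord116del* Zt +6, 14.8 in WT Zt +16 and 19.1 in *Snord116del* Zt +16, and 5 of 5 were called higher in *Snord116del* at Zt +6. Endothelial markers summed to 5.06, 15.9, 2.68 and 2.99 FPKM, with 4 of 4 tested called higher at Zt +6, and excitatory neuron markers to 364, 866, 228 and 351 FPKM, with 3 of 5 called higher. The sums of these 3 lists had their groups in the same order, from *Snord116del* Zt +6 through WT Zt +6 and *Snord116del* Zt +16 to WT Zt +16, as did *Per1* and *Per3*. Most of the excitatory sum was *Camk2a* (234, 688, 146 and 202 FPKM), and not every single marker had this order. *Slc17a7*, *Tbr1*, *Neurod6*, *Aldh1l1* and *Cdh5* had *Snord116del* Zt +16 above WT Zt +6. *Tek* had WT Zt +16 above *Snord116del* Zt +16. Interneuron markers summed to 398, 273, 774 and 1408 FPKM, with 2 of 5 called higher and 3 lower at Zt +6, and oligodendrocyte markers to 400, 656, 659 and 943 FPKM, with 3 of 5 higher. Microglial markers summed to 21.3, 43.4, 21.3 and 33.6 FPKM (3 of 5 higher), those of the striatum to 25.2, 70.8, 23.9 and 45.1 FPKM (4 of 4 tested higher) and those of the hippocampus to 18.1, 24.1, 17.1 and 32.2 FPKM (1 of 2 tested higher). Choroid plexus markers summed to 203, 187, 26.4 and 31.7 FPKM, nearly all of it *Ttr*, with 1 of 2 tested called higher at Zt +6, so the Zt +6 groups held more of that transcript than the Zt +16 groups in both genotypes. No defining marker of excitatory neurons was at 0 in a cortex group. The part of cell composition in the levels of *Per1* to *Cry2* was not tested.

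The other clock genes formed a fixed list of 25, of which 24 were in the table and 20 were tested. At Zt +6, 14 of the 20 were called higher in *Snord116del* and none lower, with a median change of 1.16 beside 0.57 for all tested genes, of which 49.3% were called higher and 7.62% lower. The values of this list, in every comparison, are as deposited and were not computed on other scales or with the length trend removed. Over all genes at Zt +6, transcripts over 6000 bases had a median change of 1.23, and equal medians left 13.5% of genes called higher. The activators were all called, *Clock* from 2.64 to 9.77 FPKM, *Arntl* from 1.44 to 3.57 and *Npas2* from 3.79 to 10.2. The nuclear receptors that repress or activate *Arntl* were also called, among them *Nr1d1* (9.79 to 30.8 FPKM), *Nr1d2* (2.94 to 7.65), *Rora* (2.60 to 8.31) and *Rorb* (1.82 to 9.50). So were the repressor *Bhlhe40* (8.45 to 23.6 FPKM), the output factors *Dbp* (1.86 to 6.00) and *Hlf* (4.41 to 13.0) and the kinases of PER proteins *Csnk1d* (6.69 to 10.9), *Csnk1e* (5.90 to 10.3) and *Gsk3b* (2.77 to 9.05). The changes of *Per2* and *Per3* lay between those of *Arntl* (0.91) and *Npas2* (1.23), and that of *Per1* was smaller than each of the 14.

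From Zt +6 to Zt +16 in WT, 6 of the 20 other clock genes were called lower and none higher, beside 10.3% and 5.71% of all tested genes. These were *Nr1d1* (-0.81), *Rorb* (-0.80), *Bhlhe40* (-0.77), *Gm129* (-0.76), a repressor of CLOCK and BMAL1, *Rora* (-0.73) and *Dbp* (-0.67), each a smaller fall than the -1.12 of *Per1*. *Dbp*, *Nr1d1* and *Bhlhe40* are known E-box genes, as *Per1* is. In *Snord116del*, 13 of the 20 were called lower and 2 higher, beside 39.1% and 25.0% of all tested genes, the latter being the output factor *Tef* (0.83) and the ubiquitin ligase *Btrc* (0.69). Those called lower included *Clock*, *Arntl*, *Npas2*, *Nr1d1*, *Nr1d2*, *Rora*, *Rorb*, *Bhlhe40*, *Dbp*, *Hlf*, *Gsk3b* and *Gm129*, and the largest fall was that of *Rorb* (-2.48). At Zt +16, *Tef* (26.1 to 43.5 FPKM) was the 1 of the 20 called higher in *Snord116del*, beside 19.0% of all tested genes, and no other clock gene was called.

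Likeness of pattern was measured as the distance between centred log2(FPKM + 1) values over the 4 groups, against 10261 genes. For *Per1* the nearest were the activity-induced factor *Fosb* (4.06, 7.14, 1.56 and 1.57 FPKM, distance 0.094), the astrocyte filament gene *Gfap* (0.183) and *Tshz2* (0.191). For *Per2* they were *Lrrc8c* (0.038), *Rab36* (0.041) and 4833422C13Rik (0.047), and for *Per3* *Jam2* (0.031), the TATA-binding protein gene *Tbp* (0.038) and *Cpeb4* (0.047). For *Cry1* they were the ribosomal protein gene *Rps15a* (0.047), *Cdca4* (0.057) and *Sgpp1* (0.069), and for *Cry2* *Cyth2* (0.020), *Wdr24* (0.036) and *Nudt14* (0.037). *Per1* had fewer genes close to it, since even its nearest gene was farther away than the genes named for any other member. Among the members, *Per2* and *Per3* were at a distance of 0.085, where *Per3* was 10th in nearness to *Per2* and *Per2* 40th to *Per3*. *Cry1* and *Cry2* were at 0.464, *Per1* and *Per2* at 0.868, and *Per1* and *Cry1*, the farthest pair, at 1.79.

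The second kind of data was *116HG* ChIRP. WT *116HG* replicate 1 had peaks at all 5 genes, and replicate 2 and the 3 control lists had none within 2 kb of any. Within 2 kb there were 14 replicate 1 peaks at *Per1* (chr11:68908719-68923462, + strand), 7 at *Per2* (chr1:93312561-93355907, -), 8 at *Per3* (chr4:150377761-150418774, -), 1 at *Cry1* (chr10:84594447-84647799, -) and 7 at *Cry2* (chr2:92243803-92274200, -), all in mm9 coordinates and all overlapping the gene. Of the 21853 genes of the table with an annotation, 59.3% had a replicate 1 peak within 2 kb, 13.9% a replicate 2 peak, 10.9% a replicate 1 peak with a replicate 2 peak within 10 kb and 10.8% a peak of a control list. With 78033 peaks, the list of replicate 1 is 7.00 times as long as that of replicate 2, which has 11145, and the control lists have between 1280 and 3648 peaks, so the lists differ in how many genes they can reach. Among genes with 1 to 3 FPKM in WT Zt +6, the range of *Per3* and *Cry1*, 89.6% had a replicate 1 peak, among those with 3 to 10 FPKM, the range of *Per1* and *Per2*, 97.6%, and among those with 10 FPKM or more, the range of *Cry2*, 99.4%, against 21.2% of genes under 0.1 FPKM. A replicate 1 peak at each of the 5 genes is therefore near the background of genes with like levels.

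Replicate 2 peaks were far from the genes. The nearest was 51.5 kb from *Per1*, 69.7 kb from *Cry2*, 367 kb from *Per2*, 455 kb from *Per3* and 573 kb from *Cry1*. No member had a replicated peak under any setting tried, with a distance between replicates of up to 50 kb. The nearest replicate 2 peak lay beyond that distance, so these settings could not have given one. At 50 kb, 27.1% of the annotated genes had one. Among the control lists, the nearest peaks were those of *Snord116del* NSC at 8.02 kb from *Per1* and 16.4 kb from *Cry2* and that of WT NSC at 16.7 kb from *Per3*.

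The replicate 1 peaks followed the exons. Of the 37 peaks, 35 had their middle base in an exon, 19 of them in coding exons, 12 in the 3′ UTR and 4 in the 5′ UTR, and 2 were intronic, 1 in *Per1* and 1 in *Per3*. Exons held 93.6% of the peak bases and take up 16.6% of the length of the 5 genes. Over all replicate 1 peaks, not only those at genes, 72.0% had the middle base in an exon. The 37 peaks all overlap a gene, so the shares are of unlike sets of peaks. *Per1* had 2.49 peaks per kb of exon, *Per2* 1.20, *Cry2* 1.11, *Per3* 0.833 and *Cry1* 0.332. The fold over input, the authors' value for each peak, ran from 27.0 to 185 with a median of 51.3, beside 55.3 for all peaks of the list. The highest was over the last exon of *Per1*, a peak of 893 bases.

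**Figure D5:**
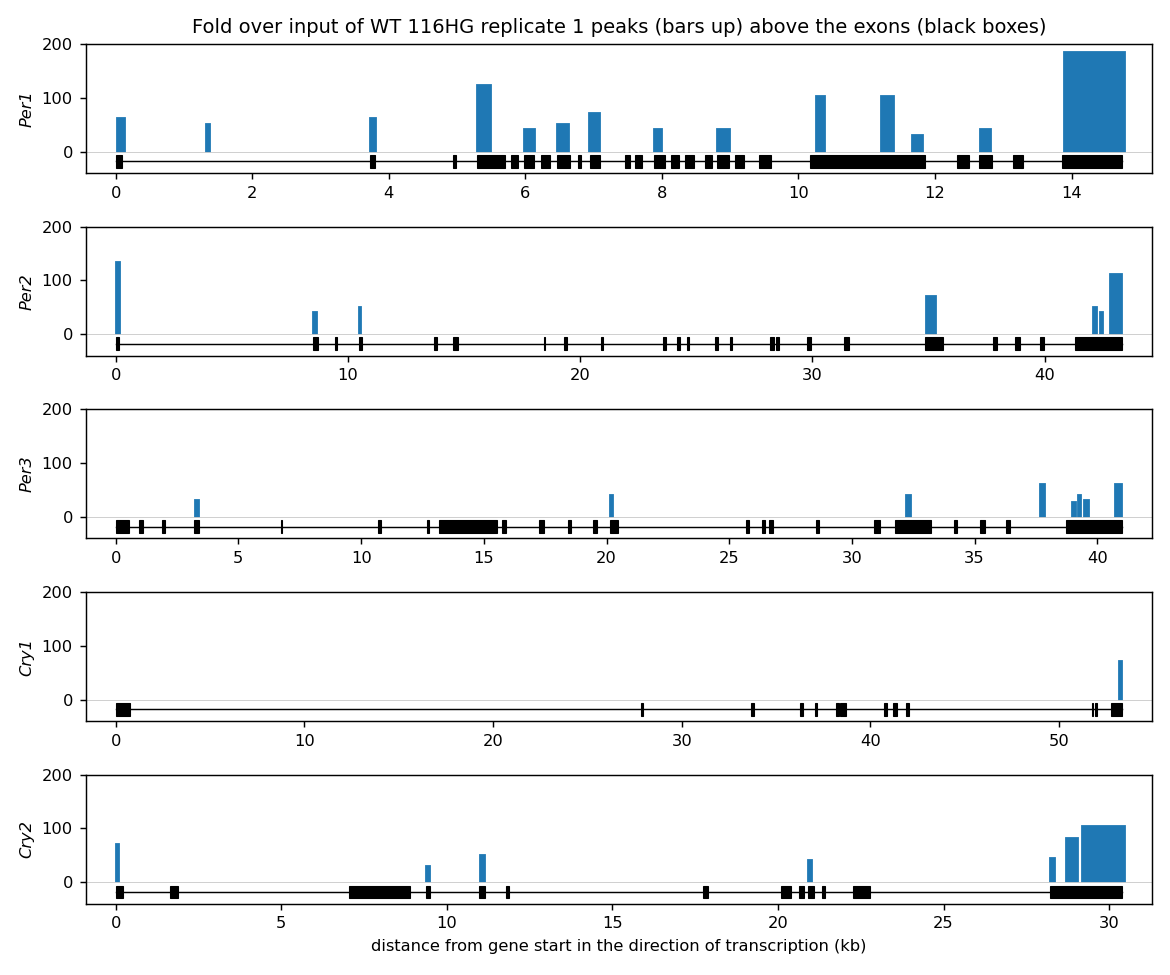
Peaks of WT *116HG* replicate 1 at the 5 genes, with the fold over input of each peak as the height of its blue bar (vertical axes, linear) and annotated exons of all transcripts as black boxes, by distance from the gene start in the direction of transcription (horizontal axes, kb, a scale of its own for each gene). Of the 37 peaks 35 stand over exons, every gene has one over its last exon, and the highest, at 185, is at the end of *Per1*.

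A peak lay over the last 500 bases of all 5 genes, against 35.8% of annotated genes with one there, and over the first 500 bases of *Per1*, *Per2* and *Cry2*, against 25.2%. Both shares are over genes of all levels and were not computed for genes with levels like those of the 5. Any replicate 1 peak was at 21.2% of genes under 0.1 FPKM, and at 89.6% or more at the levels of the 5 genes. The only peak at *Cry1*, with a fold of 71.8, was in the 3′ UTR. For each of the other genes a coding-exon peak is printed, to show where called peaks end relative to the splice sites. Chosen were the peaks with the highest fold among those of at most 300 bases that touch no annotated UTR. These are exon 8 of 23 in *Per1* (chr11:68915655-68915806, fold 71.8), exon 4 of 23 in *Per2* (chr1:93345328-93345447, fold 51.3), exon 4 of 21 in *Per3* (chr4:150415371-150415535, fold 31.6) and exon 4 of 12 in *Cry2* (chr2:92263046-92263213, fold 51.3). The sequences are from NCBIM37, the assembly of mm9, 5′ to 3′ on the gene's strand, with exon bases in capitals and intron bases in lower case.
Per1: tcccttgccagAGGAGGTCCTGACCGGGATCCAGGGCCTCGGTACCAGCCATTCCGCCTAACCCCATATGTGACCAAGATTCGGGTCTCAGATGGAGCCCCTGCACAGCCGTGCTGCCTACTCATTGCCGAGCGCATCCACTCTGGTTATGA
Per2: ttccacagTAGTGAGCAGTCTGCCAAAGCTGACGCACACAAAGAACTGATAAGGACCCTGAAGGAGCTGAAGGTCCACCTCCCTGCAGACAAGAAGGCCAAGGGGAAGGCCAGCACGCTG
Per3: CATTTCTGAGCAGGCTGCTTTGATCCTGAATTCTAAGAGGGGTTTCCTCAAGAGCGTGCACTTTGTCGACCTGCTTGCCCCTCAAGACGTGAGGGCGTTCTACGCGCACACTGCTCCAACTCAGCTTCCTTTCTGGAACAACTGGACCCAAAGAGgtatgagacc
Cry2: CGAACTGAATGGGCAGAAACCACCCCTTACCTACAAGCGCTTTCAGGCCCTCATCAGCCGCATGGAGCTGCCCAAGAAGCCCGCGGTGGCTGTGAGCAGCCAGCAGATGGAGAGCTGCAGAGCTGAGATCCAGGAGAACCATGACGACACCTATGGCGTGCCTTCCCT

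The *Per1* peak held 141 exon bases of 152, that of *Per2* 112 of 120, that of *Per3* 155 of 165 and that of *Cry2* 168 of 168. The printed peaks were chosen with their middle base in a coding exon, so these high shares follow in part from the choice. The peaks of *Per1* and *Per2* began within the intron just before the exon, and that of *Per3* ended just after it. Whether the exon peaks come from chromatin or from RNA was not tested. *Cry2* overlaps the long noncoding RNA gene *D930015M05Rik* on the other strand, so that without counting by strand the reads of both genes cannot be told apart there.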

How the data were processed

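Cortex RNA-seq of 9 mice in 4 groups and ChIRP-seq peak lists of 5 libraries were used. RNA-seq reads were aligned to mm9, and the authors deposited Cuffdiff FPKM, with a single value for each gene in each group. ChIRP reads were aligned to the same build and peaks were called with MACS library by library. Each peak's enrichment over input, a ratio, was deposited with its position, and WT *116HG* replicate 2 comes without it. The submitters' processing notes name CASAVA 1.8.0, Bowtie2 2.0.0, MACS 1.4.2, TopHat2 2.0.5 and Cuffdiff 2.0.2. The authors' log2 fold changes, p- and q-values compare *Snord116del* with WT at each time and were not used, and the number of unused columns with values of single samples was 0. The table gives FPKM of groups and no fragment counts per mouse, so no counting error is given. Labels of 3 of the Zt +6 samples name an earlier version of the table, and the table used here covers all 4 groups.

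Since the table holds group values, limma could not be run and the 1.5-fold rule on FPKM + 1 was used, among genes averaging 1 FPKM or more. Alternatives changed the pseudocount, filter, fold, group scale, transcript length trend, peak distance and peak threshold. The scripts were tested on simulated data. Peaks were joined to genes within 2 kb with GENCODE annotation of NCBIM37, and promoter windows came from RefSeq. The text names the 5 genes, other clock genes past the fold rule, the 3 genes with the nearest pattern to each member, and *Gapdh*, and 1 listed gene is not reported here. The members, the lists of clock genes and cell type markers and the rules were chosen with earlier results of these data known. Python 3.11.15 was used, with the packages statsmodels 0.14.6, matplotlib 3.10.9, pandas 2.3.3 and numpy 2.4.6.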

Additional observations from a re-analysis of the deposited data

How the results depend on the processing

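No paired analysis was possible because the table holds 1 value per group, and for the same reason no mouse could be left out. Of 43 counts of members under alternative settings, 34 stayed within 1.5 times their main value. These include all counts of replicate 2 and replicated peaks and most of those of control peaks and of Zt +16. Those counts were 0 in the main setting and stayed at 0, so they say little about stability. Narrower peak settings could not have raised them. Equal medians left 1 of 5 members called at Zt +6, *Cry2*, which was lower in *Snord116del* (-0.64) in place of 3 higher, with *Per1* at -0.14, and gave 5 calls from Zt +6 to Zt +16 in *Snord116del*, 2 higher (*Cry1*, *Cry2*) and 3 lower. Equal *Gapdh* gave 5 calls at Zt +6, 2 lower calls at Zt +16 (*Per1* at -0.64) and 5 lower calls from Zt +6 to Zt +16 in *Snord116del* (*Cry1* at -1.21, *Cry2* at -1.58). Equal sums gave *Cry2* -0.75 in that comparison. Removal of the length trend left 1 call there, *Per1*, beside 17.6% of all genes called higher and 33.9% lower. A pseudocount of 0.1 gave 2 calls from Zt +6 to Zt +16 in WT, with *Cry1* at 0.66. Of all genes 8.14% were then called higher and 18.0% lower. Replicate 1 peaks in the upper quartile of the fold stood at 3 genes, *Per1*, *Per2* and *Cry2*, and at 34.5% of annotated genes. A distance of 10 kb put 1 control peak near a gene, *Per1*, as for 15.0% of annotated genes. Apart from what rescaling and smaller gene sets do by construction, the cause of these changes was not tested. Equal medians moved the median change of all genes by -0.63 at Zt +6, -0.34 at Zt +16, 0.09 in WT and 0.37 in *Snord116del* from Zt +6 to Zt +16, equal sums by -0.01, -0.45, -0.29 and -0.76, and equal *Gapdh* by 0.61, -0.64, -0.20 and -1.49. At Zt +6, 49.3% of genes were called higher and 7.62% lower as deposited, 13.5% and 23.4% with equal medians, and 77.3% and 1.82% with equal *Gapdh*. At Zt +16 the shares were 19.0% and 0.204% as deposited, 1.12% and 0.447% with equal medians, 0.282% and 0.796% with equal sums and 0.155% and 7.62% with equal *Gapdh*. From Zt +6 to Zt +16 they were 5.71% and 10.3% in WT as deposited, 10.2% and 7.91% with equal medians, 0.437% and 23.4% with equal sums and 1.20% and 17.6% with equal *Gapdh*, and in *Snord116del* 25.0% and 39.1%, 34.1% and 25.3%, 7.95% and 65.3%, and 2.10% and 84.9% in the same order. The called fall of *Per1* from Zt +6 to Zt +16 in both genotypes held under every alternative tried. No setting gave a replicate 2 or replicated peak at the 5 genes, but none could have done so. The nearest replicate 2 peak was 51.5 kb from a gene, beyond the distances tried. Most annotated genes also lack such peaks, since 13.9% had a replicate 2 peak and 10.9% a replicated one.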
